A study of Mus musculus with 8 samples.

Results

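The colony-stimulating factor genes Csf1, Csf2 and Csf3 were described in 4T1 cells, a mouse mammary carcinoma line, carrying an shRNA against Etv5 or a control shRNA. The members were chosen by gene symbol, and all 3 were found among the 24787 rows of the deposited table. RNA was sequenced in 8 libraries of cultured cells, 4 labelled Etv5 knockdown and 4 labelled wild type with the control shRNA. The column headers give a single construct name per group, sh2 and NT, and neither a clone nor a time of harvest is given in the sources used here. No label says that replicates were separate cultures, so p-values measure only the spread between these libraries, which may be technical. The title of the series links ETV5 in tumour cells to myeloid-derived suppressor cells, and these genes encode secreted factors that act on myeloid cells.

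Colony-stimulating factors are haematopoietic growth factors that also feed myeloid cells around tumours. CSF1 (M-CSF) acts through the receptor tyrosine kinase CSF1R and maintains monocytes and macrophages. CSF2 (GM-CSF) acts through its own alpha chain and a beta chain shared with the receptors of IL-3 and IL-5. CSF3 (G-CSF) acts through CSF3R and drives the production and release of neutrophils, and tumours of the 4T1 line are known for high G-CSF and neutrophil expansion in mice. Transcripts of this kind are often short-lived, since AU-rich elements in the 3′ UTR recruit decay factors.

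Csf3 occupies bases 98701263 to 98703629 of chromosome 11 in mm10, plus strand, and has 1 annotated transcript of 1413 bases in GENCODE release M21. Csf2 occupies bases 54247271 to 54249667 of the same chromosome, minus strand, with 1 transcript of 800 bases. Csf1 occupies bases 107741048 to 107760469 of chromosome 3, minus strand, with 7 annotated transcripts, the longest of 4176 bases. The members differ in the AU-rich pentamer ATTTA, the core of elements that bind the decay factor TTP, encoded by Zfp36. In the longest transcripts the pentamer occurred 9 times in the 317-base 3′ UTR of Csf2, 6 times in the 669-base 3′ UTR of Csf3 and 4 times in the 2111-base 3′ UTR of Csf1. None of the 1653 other 3′ UTRs within 20% of the length of Csf2 held as many. For Csf3 1.64% of 2262 UTRs of like length held as many, and for Csf1 47.6% of 2833. The nonamer TTATTTATT, which overlaps the pentamer, occurred 4 times in Csf2 and was not found in the other two members; 2.3% of UTRs with a length like that of Csf2 held it, 3.71% for Csf3 and 10.4% for Csf1. The 30-base stretches with most pentamers are shown because they set the members apart in sequence, with the pentamers in capitals, read 5′ to 3′ on the transcript strand. They start at base 230 of the 3′ UTR in Csf2, base 24 in Csf3 and base 2021 in Csf1.
Csf2: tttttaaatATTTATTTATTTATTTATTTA
Csf3: gatagtttATTTAtctctATTTAatATTTA
Csf1: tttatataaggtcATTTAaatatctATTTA
The stretch of Csf2 is an unbroken run of overlapping pentamers, those of Csf3 and Csf1 hold separate ones, and the sequences are from the GENCODE M21 transcripts. Among the other annotated coding transcripts of Csf1, that of 3058 bases has the same 4 pentamers and that of 2097 bases has none in its 259-base 3′ UTR.

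The deposited values, called coverage values here, give the average read coverage along a gene, scaled to library depth. They summed to between 256510 and 390495 in the Etv5 shRNA libraries and between 254792 and 308393 in the controls. Etv5 shRNA library 3 stood apart, with the highest sum and the fewest genes above 0, 13920 against 15126 to 15379 elsewhere. Its values deviated with transcript length, so results are given with and without it. Control library 3 deviated with length in the same direction, to a lesser extent, and was kept in both. Etv5 itself had 13.0, 11.2, 7.52 and 12.7 in the Etv5 shRNA libraries, against 15.2, 15.1, 11.7 and 14.4 in the controls. The groups overlapped, and its log2 fold change was -0.33 with an adjusted p of 0.819 by limma, or -0.17 and 0.422 without library 3. The targeted transcript was thus not resolved as lower in the libraries labelled Etv5 shRNA. The epithelial keratin gene Krt18 and all other 11 epithelial markers were measured in every library. Of 18 leukocyte markers, Cd3e, Cd3g, Cd4, Adgre1, Tyrobp and Nkg7 were at 0 throughout, and Cd14 and Cd68 alone passed the filter described next. The summed leukocyte markers ranged from 6.56 to 7.84 with the Etv5 shRNA and from 7.78 to 10.1 in controls. Among epithelial markers the E-cadherin gene Cdh1 was not called over 8 libraries and was higher without library 3 (log2 fold change 0.71, adjusted p 0.00455 by limma). Of 9 fibroblast markers 1, Pdgfra, was tested. It was not called over 8 libraries (-0.74, adjusted p 0.435 by limma) and was lower without library 3 (-0.50, adjusted p 0.0452 by limma). Dcn and Lum were at 0, and the sums were 0.686 to 2.59 with the Etv5 shRNA and 2.76 to 3.66 in controls. The part of other cell types in the results was not tested, and in bulk RNA fewer cells of a type and less RNA per cell cannot be told apart.

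Csf3 fell 5.91-fold with the Etv5 shRNA and was the only member called over 8 libraries; Csf2 was called lower once library 3 was left out, and Csf1 in neither fit. The test was limma on log2(value + 1), run on 11731 genes that reached 0.5 in 4 or more libraries, with a call at a Benjamini-Hochberg adjusted p under 0.05. All 3 members passed that filter. One of these 3 was called lower, where 0.486% of all tested genes were lower, 0.00852% higher and 0.494% either. Without library 3, 2 of 3 were called lower, where 2.05% of all tested genes were lower, 1.08% higher and 3.14% either. The median log2 fold change of the members was -0.51, against -0.11 for all tested genes, and without library 3 it was -0.66, against 0.00.

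Csf3, the neutrophil growth factor gene, had coverage values of 20.6, 22.2, 24.6 and 22.9 in the Etv5 shRNA libraries, against 121, 136, 153 and 123 in the controls. The groups lay far apart, and the lowest control was well above the highest Etv5 shRNA library. The means were 22.6 ± 1.65 with the Etv5 shRNA and 133 ± 14.8 in controls (SD, n = 4 each), a 5.91-fold fall. The log2 fold change was -2.51 (SE 0.129, 95% interval -2.80 to -2.21) and limma gave an adjusted p of 6.1e-05, so that Csf3 ranked 3 by p among all tested genes. Library 3 was here the highest of its group and did not stand apart from it. Without it the mean was 21.9 ± 1.16 (SD, n = 3), 6.09-fold lower than in controls, with a log2 fold change of -2.55 (adjusted p 1.71e-06 by limma). The coverage values alone, in an exact permutation test of both sides, gave p = 0.0286, the smallest that 70 assignments allow. Csf3 stood at the 78.5th percentile of tested genes by mean coverage value with the Etv5 shRNA and at the 97.7th in controls, so its transcript was still among the better covered genes after the fall.

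**Figure D1:**
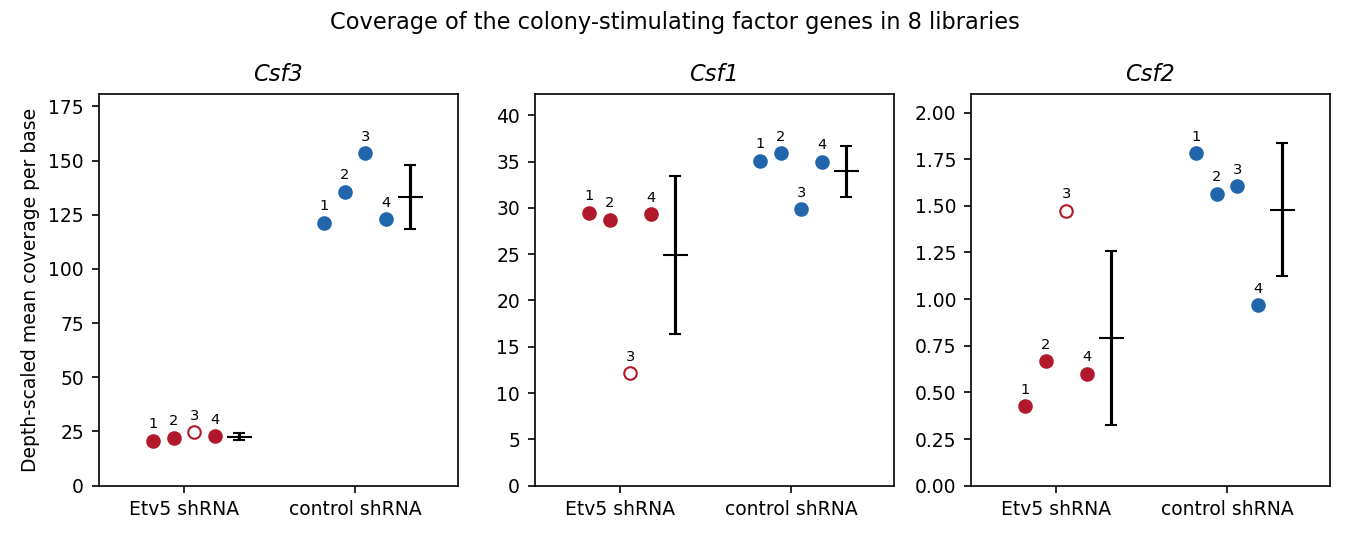
Coverage value (depth-scaled mean coverage per base, linear axis from 0) of Csf3, Csf1 and Csf2 in each library, with Etv5 shRNA left and control shRNA right; numbers are replicate numbers, the open point is Etv5 shRNA library 3, and bars give the mean and SD of 4 libraries. Csf3 separates the groups (20.6 to 24.6 against 121 to 153), while library 3 is the lowest point for Csf1 (12.1) and the highest of its group for Csf2 (1.47).

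Csf2, the GM-CSF gene, had low coverage values, at 0.426, 0.667, 1.47 and 0.600 in the Etv5 shRNA libraries, against 1.78, 1.57, 1.61 and 0.968 in the controls. Library 3 lay within the range of the controls, and the other 3 Etv5 shRNA libraries lay below every control. Over 8 libraries the means were 0.791 ± 0.465 with the Etv5 shRNA and 1.48 ± 0.354 in controls (SD, n = 4 each), the log2 fold change was -0.49 (95% interval -0.92 to -0.06) and the adjusted p 0.594 by limma. Without library 3 the mean was 0.564 ± 0.124 (SD, n = 3), 2.62-fold below controls, and the log2 fold change was -0.66 with an adjusted p of 0.0306 by limma. That call rests on leaving out library 3. With median-of-ratios scaling of those 7 libraries the change was -0.65 on the log2 scale (limma's adjusted p 0.0324), and with each library's trend with transcript length removed -0.51 (0.0537). The exact two-sided permutation p was 0.0571 with and without library 3. Among all tested genes, 10.4% had non-overlapping groups toward lower values in those 7 libraries and 9.76% toward higher. At these levels a pseudocount of 1 shrinks the log2 fold change, which was -0.92 over 8 libraries with a pseudocount of 0.1 (adjusted p 0.667 by limma).

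The coverage behind Csf2 was thin. In genes with a single exon most of the lowest values were near multiples of 1 covered base. Between 74.7% and 96.6% of them were whole within 0.1, so some were not. These values put a value of 1 at 6.38 to 8.42 reads over each base. That scale was read from the same values, so the share that was whole is no separate check of it. On this basis Csf2 was covered by 3.05, 5.61, 11.2 and 3.83 reads per base in the Etv5 shRNA libraries, against 11.4, 11.6, 11.3 and 6.73 in the controls. Csf3, by contrast, was covered by 146 to 187 reads per base with the Etv5 shRNA and 779 to 1080 in controls. Read length is not given in the sources used here, so numbers of reads were not derived. Covered bases, the coverage times the longest transcript, were 307, 612, 616, 921, 1224 and 1530 where the receptor gene Csf2rb was above 0. For Il5 they were 305 and 306, and for Csf1r 365, 368, 741, 742 and 943. Csf2 had 2442, 4492, 8931 and 3061 in the Etv5 shRNA libraries, against 9149, 9260, 9060 and 5383 in controls. Whether a step near 306 bases is 1 read or read pair was not tested. Csf2 also overlaps Gm12223, an antisense gene on the plus strand, which shares 48 of its 751 stretches of 50 bases. Whether coverage was assigned by strand is not given, so a part of the Csf2 value may belong to that gene. Neither Csf1 nor Csf3 shared a 50-base stretch with another gene's transcripts.

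Csf1, the macrophage growth factor gene, had coverage values of 29.5, 28.7, 12.1 and 29.3 in the Etv5 shRNA libraries, against 35.1, 35.9, 29.9 and 35.0 in the controls. Every Etv5 shRNA library was below every control, but by little, with the highest Etv5 shRNA library at 29.5 and the lowest control at 29.9. Such non-overlap toward lower values occurred in 7.58% of all tested genes. The means were 24.9 ± 8.53 with the Etv5 shRNA and 34.0 ± 2.75 in controls (SD, n = 4 each), with a log2 fold change of -0.51 (95% interval -1.13 to 0.11), not called by limma at an adjusted p of 0.810. Library 3 held much of the spread: without it the mean was 29.2 ± 0.403 (SD, n = 3), 1.16-fold below controls, with a log2 fold change of -0.21 (95% interval -0.41 to -0.01), not called by limma at 0.236. The exact two-sided permutation p over 8 libraries was 0.0286, and without library 3 it was 0.0571, the smallest that 35 assignments allow.

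Library 3 displaced the members in the order of their transcript lengths. On log2(value + 1), its deviation from the average of the remaining 3 in its group was -1.20 in Csf1, the longest transcript, 0.16 in Csf3 and 0.66 in Csf2, the shortest. Among tested genes with transcripts within 20% of the length of each member, the median deviation was -0.68 for the length of Csf1 (3178 genes, 5th to 95th percentile -1.72 to 0.59), 0.44 for that of Csf3 (1030 genes, -0.74 to 1.61) and 1.23 for that of Csf2 (368 genes, -0.91 to 2.23). All 3 deviations were inside these ranges. With the length trend removed from all 8 libraries the log2 fold changes were -0.36 for Csf1 (adjusted p 0.309), -0.63 for Csf2 (adjusted p 0.136) and -2.54 for Csf3 (adjusted p 1.28e-05) by limma. Control library 3 tilted the same way. Its median deviation was 0.44 in the bin at 1009 bases and -0.52 at 9556 bases, against 1.02 and -1.24 in Etv5 shRNA library 3. It held the lowest control value for Csf1 (29.9) and the highest for Csf3 (153), and it remains in the fits without Etv5 shRNA library 3. The part of transcript length in the Csf1 and Csf2 values of Etv5 shRNA library 3 was not tested beyond this correction.

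**Figure D2:**
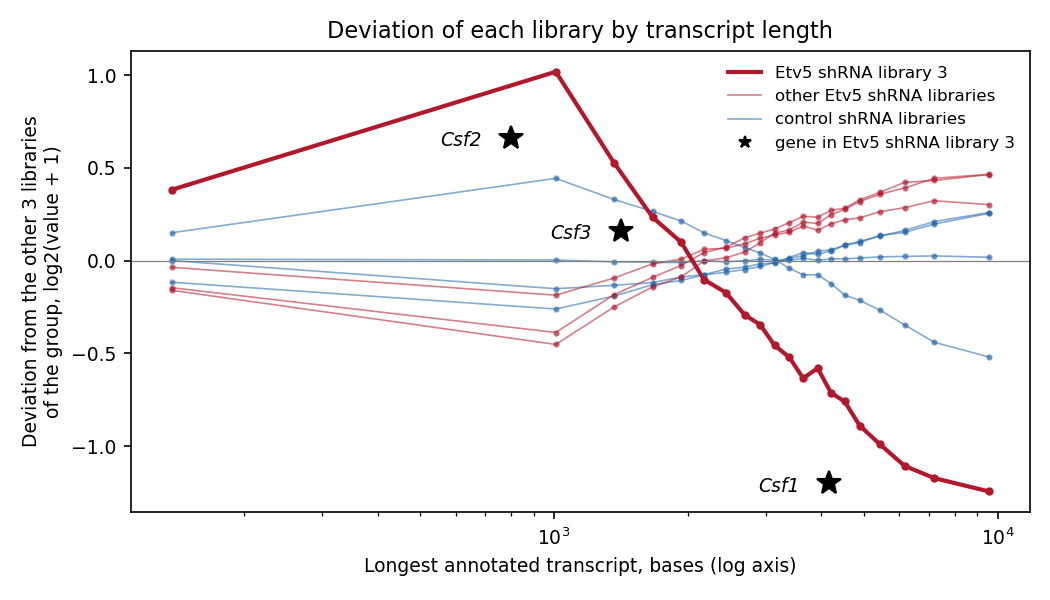
Median deviation of each library from the mean of the other 3 of its group (log2(value + 1), y axis) in 20 equal bins of tested genes by longest transcript (log x axis); stars mark the members in Etv5 shRNA library 3, the thick line. Etv5 shRNA library 3 runs from above 0 for short transcripts to below 0 for long ones, with Csf2 at 0.66, Csf3 at 0.16 and Csf1 at -1.20. Control library 3 tilts the same way, from 0.44 at 1009 bases to -0.52 at 9556 bases. The mean that each other library is set against includes library 3 of its group.

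Because a coverage value is per base, the members can be ordered within a library, and a ratio within a library does not depend on how libraries were scaled. A ratio does depend on a library's trend with transcript length, since the members differ in length (4176, 800 and 1413 bases for Csf1, Csf2 and Csf3). That trend was not removed from the ratios, and Csf3/Csf1 was highest of its group in both libraries numbered 3. In the controls Csf3 was the highest, then Csf1, then Csf2, in all 4 libraries. With the Etv5 shRNA, Csf1 was above Csf3 in libraries 1, 2 and 4 and below it in library 3. The Csf3/Csf1 ratio was 0.699, 0.774, 2.03 and 0.780 in the Etv5 shRNA libraries, against 3.46, 3.78, 5.13 and 3.51 in the controls. No Etv5 shRNA library reached the controls, and library 3 was the nearest to them. The log2 ratio differed by -2.03, or -2.38 without library 3. The Csf3/Csf2 ratio was 48.4, 33.3, 16.7 and 38.1 with the Etv5 shRNA, against 68.1, 86.6, 95.5 and 127 in controls. Csf3 thus also fell relative to Csf2, by 1.53 on the log2 scale over 8 libraries, and the difference was -1.22 without library 3. For both of these ratios the exact two-sided permutation p was 0.0286 over 8 libraries and 0.0571 without library 3, in each case the smallest possible.

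The Csf2/Csf1 ratio was 0.0145, 0.0232, 0.122 and 0.0205 in the Etv5 shRNA libraries, against 0.0508, 0.0436, 0.0538 and 0.0277 in the controls. Here library 3 was above every control and the other 3 were below them, so the groups overlapped only through that library. The log2 ratio differed by -0.49 over 8 libraries, with an exact two-sided permutation p of 0.543. Without library 3 it differed by -1.16, with an exact p of 0.0571. These p-values are not adjusted over the 3 ratios.

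**Figure D3:**
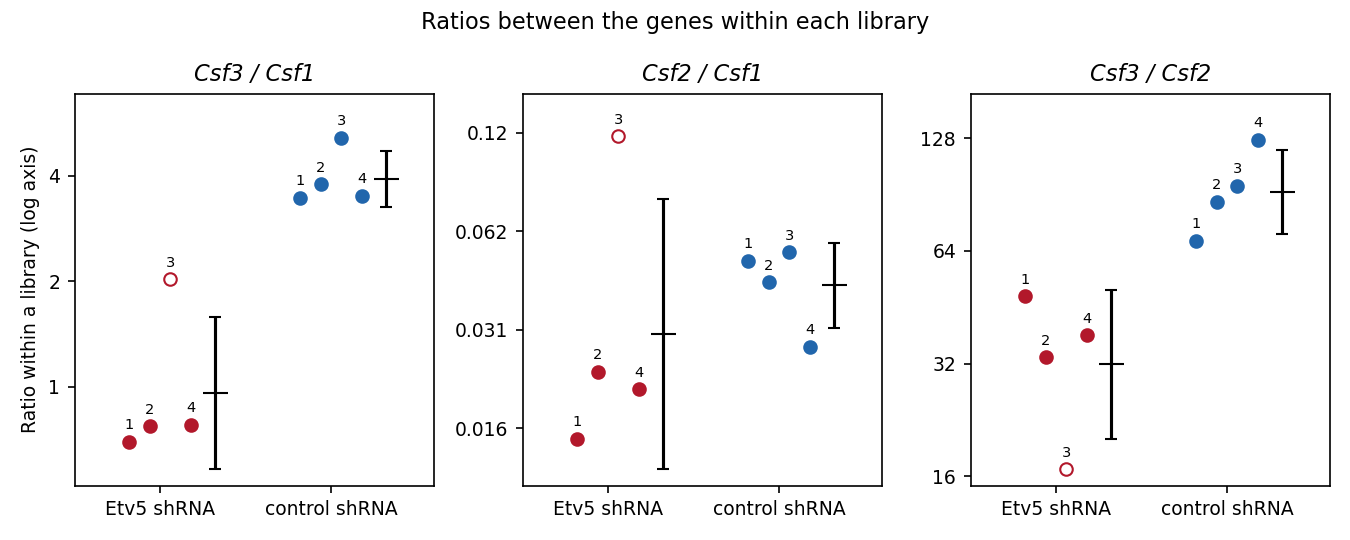
Ratios of coverage values between members within each library (log y axis), with Etv5 shRNA left and control shRNA right; numbers are replicate numbers, the open point is Etv5 shRNA library 3, and bars give the geometric mean and SD on the log2 scale of 4 libraries. Csf3/Csf1 and Csf3/Csf2 do not overlap between groups, whereas Csf2/Csf1 overlaps through library 3, at 0.122.

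The receptors of these factors were close to 0 in the tumour cells. Csf2ra and Csf3r, which encode the ligand-binding chain for GM-CSF and the G-CSF receptor, were at 0 in all 8 libraries. Csf1r reached at most 0.0247 with the Etv5 shRNA and 0.0312 in controls. Csf2rb, the shared beta chain, reached 0.0392 with the Etv5 shRNA and 0.0443 in controls. Csf2rb2, the mouse IL-3 receptor beta chain, reached 0.0402 with the Etv5 shRNA and 0.0907 in controls. None passed the filter, and no fold change is given. Among the other ligands of these receptor chains, Il3 was at 0 in all Etv5 shRNA libraries and at most 0.0515 in controls. Il5 was at most 0.0277 with the Etv5 shRNA and at 0 in controls, and neither was tested.

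Il34, the second ligand of CSF1R, was the only one of them that was tested. It had 12.8, 12.4, 12.2 and 12.7 in the Etv5 shRNA libraries, against 13.9, 15.1, 16.4 and 15.8 in the controls. As in 7.58% of all tested genes, the groups did not overlap, toward lower values, at means of 12.5 ± 0.308 with the Etv5 shRNA and 15.3 ± 1.06 in controls (SD, n = 4 each). Its log2 fold change of -0.27 had an adjusted p of 0.690 by limma, and without library 3 the values were -0.25 and 0.139. Both CSF1R ligands were thus measured in these cells and neither was called.

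Of 7 tested genes among the other haematopoietic growth factors none was called over 8 libraries, where 0.494% of all tested genes were. Their median log2 fold change was -0.15, against -0.11 for all tested genes. Without library 3, 2 of 7 were lower, where 2.05% of all tested genes were, and the median was 0.09. These were Lif and Il11, which encode ligands of the IL-6 family. Lif averaged 9.0 ± 0.371 (SD, n = 3) with the Etv5 shRNA and 14.9 ± 1.62 (SD, n = 4) in controls, with an adjusted p of 0.00854 by limma. Il11 averaged 0.756 ± 0.0441 (SD, n = 3) with the Etv5 shRNA and 1.38 ± 0.170 in controls (SD, n = 4), with an adjusted p of 0.0389 by limma. Tslp, which encodes an epithelial cytokine, had non-overlapping groups in the other direction, at 15.3 to 22.1 with the Etv5 shRNA and 11.8 to 14.7 in controls, and was not called (adjusted p 0.520 by limma). Non-overlap toward higher values occurred in 1.52% of all tested genes. Il6 was at most 0.0376 with the Etv5 shRNA and 0.108 in controls, and Thpo and Epo were likewise under the filter.

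Among 11 factors that govern decay or stability of such transcripts, 1 was lower, none higher and 10 were not called. Of all tested genes 0.486% were lower. The one called was Zc3h12a, which encodes the RNase Regnase-1. It had 2.53, 2.25, 1.35 and 2.75 in the Etv5 shRNA libraries, against 15.6, 16.2, 13.8 and 14.5 in the controls. The groups lay far apart, with a 6.77-fold lower mean, a log2 fold change of -2.33 and an adjusted p of 0.000582 by limma, or 2.62e-06 without library 3. Zfp36, which encodes TTP, was 1.89 to 5.43 with the Etv5 shRNA and 4.63 to 5.42 in controls and was not called (adjusted p 0.879 by limma). The stabilising factor gene Elavl1 had a log2 fold change of 0.18 and was not called either. The median of the list was -0.34 over 8 libraries, against -0.11 for all tested genes, and -0.04 without library 3.

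Of 20 tested transcription factor genes linked to the colony-stimulating factors, Cebpd was lower and 19 were not called, and the median log2 fold change was -0.26. For all tested genes the share called lower was 0.486% and the median -0.11. Cebpd, a C/EBP factor of the acute phase response, averaged 1.71 ± 0.705 with the Etv5 shRNA and 5.75 ± 1.23 in controls (SD, n = 4 each), at limma's adjusted p of 0.0338. That call did not survive removal of any library other than Etv5 shRNA library 3 (limma's adjusted p 0.0857 to 0.155), whereas removing library 3 gave 0.000566. Nor did it survive median-of-ratios scaling (0.206), quantile normalisation (0.285), no filter (0.0678), a pseudocount of 0.1 (0.0541) or removal of the length trend (0.128). It was kept with equal sums (0.00902), a filter at 1 (0.0349) and the replicate block (0.0105). The log2 fold change, -1.33 over 8 libraries, was between -1.74 and -1.09 in all 18 settings. Without library 3, 2 of 20 were lower, where 2.05% of all tested genes were. The second was Cebpb, a C/EBP factor of inflammation and emergency granulopoiesis. It averaged 80.1 ± 19.6 (SD, n = 3) with the Etv5 shRNA and 162 ± 34.8 in controls (SD, n = 4), with an adjusted p of 0.0268 by limma. The NF-kB subunit gene Rela had a log2 fold change of -0.02, and Ets1 and Ets2, ETS factors, had -0.31 and -0.07; none was called.

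Upstream cytokines and receptors had 12 tested members, of which Il1a was lower and 11 were not called, where 0.486% of all tested genes were lower. Il1a, which encodes IL-1α, an inducer of G-CSF and GM-CSF in many cell types, averaged 2.85 ± 1.53 with the Etv5 shRNA and 17.0 ± 1.15 in controls (SD, n = 4 each), with an adjusted p of 0.0169 by limma and 2.49e-05 without library 3. Removing any control or Etv5 shRNA library 4 ended the call (0.0688 to 0.0901), as did a pseudocount of 0.1 (0.0696) and scaling to equal sums (0.0511). The log2 fold change, -2.34 over 8 libraries, was then -2.38 to -2.31, -2.77 and -2.37. These genes had a median log2 fold change of -0.27, against -0.11 for all tested genes, or -0.10 without library 3. Il1b was 0.0947 to 0.208 with the Etv5 shRNA and 0.476 to 1.09 in controls. Tnf was 0.0372 to 0.155 with the Etv5 shRNA and 0.344 to 0.635 in controls, and both were under the filter and were not tested. The receptor genes Il1r1 and Tnfrsf1a were not called (adjusted p 0.879 each by limma). Among genes that transmit signals of the receptors, 15 tested, and genes that process CSF1 at the cell surface, 6 tested, none was called. Of all tested genes 0.494% were called, and at that share most lists of this size would hold none. The medians were -0.28 and -0.21. Adam17, the protease known to shed CSF1, was 4.87 to 14.4 with the Etv5 shRNA and 15.1 to 17.2 in controls (adjusted p 0.802 by limma). These medians lay near 0 without library 3, at -0.10 and -0.03.

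**Figure D4:**
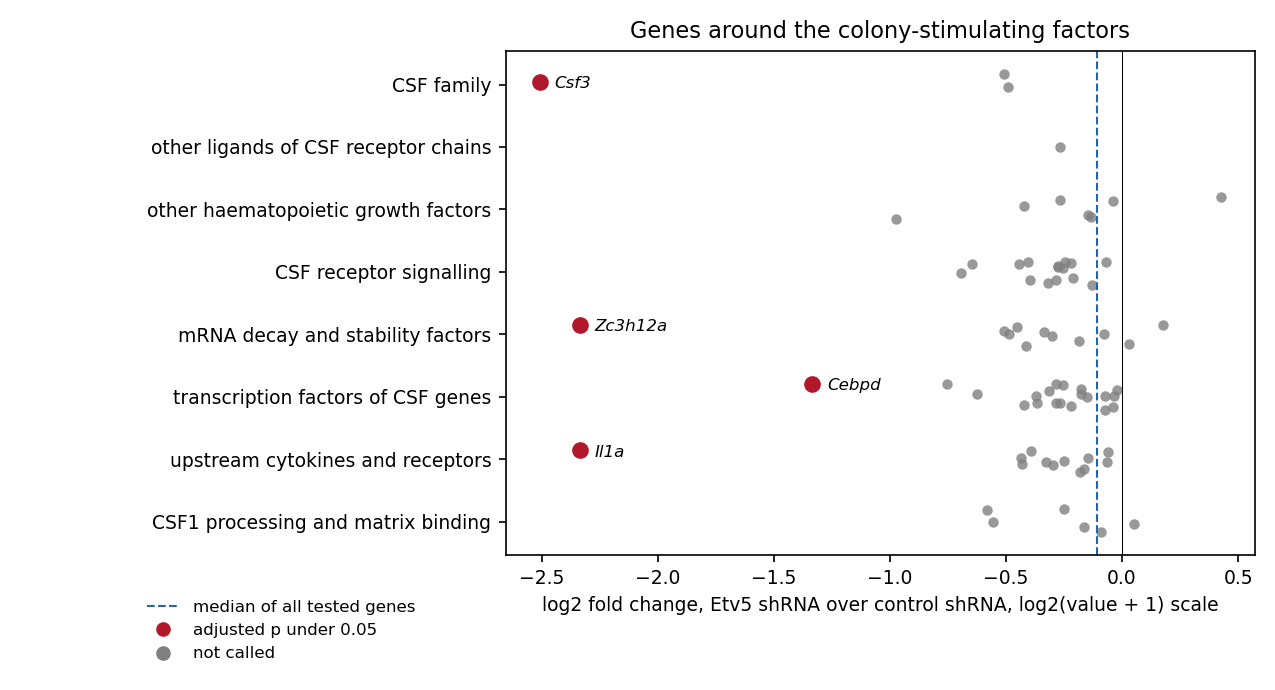
Log2 fold change (Etv5 shRNA over control shRNA, log2(value + 1), 8 libraries, x axis) of every tested gene of 8 lists (rows, with vertical jitter); red points were called at an adjusted p under 0.05 by limma, grey points were not, and the dashed line is the median of all tested genes, -0.11. Csf3 (-2.51), Zc3h12a (-2.33), Il1a (-2.34) and Cebpd (-1.33) lie apart from the other genes of their lists.

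Genes with the profile most like each member were found by the root mean square distance between profiles over 8 libraries, each on log2(value + 1) and centred on the control mean. Nearest to Csf3 were Zc3h12a at 0.296, the chemokine gene Ccl20 at 0.374, complement C3 at 0.417, the serine protease gene Prss12 at 0.447 and the monocyte chemokine gene Ccl2 at 0.460. All of these were called lower in the fit, with folds from 5.55 for Prss12 to 7.88 for Ccl20 and a larger one for Ccl2. They were chosen for their likeness to Csf3 in the same libraries, so these calls follow largely from the choice. Ccl2 was near 0 with the Etv5 shRNA, at 0.104, 0.0451, 0.201 and 0.710, against 3.40, 3.25, 4.82 and 3.47 in controls. The size of its fold rested on library 4, being 14.1 with all libraries and 32 without that one. The other members were far from Csf3, with Csf2 at 1.44 and Csf1 at 1.48. Nearest to Csf1 were Smarca2, Zfp60, Tbl1xr1 and Lca5, at 0.0406 to 0.0567, none of them called, and in these genes too library 3 held the lowest value of the group. Nearest to Csf2 were Syne4, Stoml1, Rac3, Sirt3 and the TGF-beta1 gene Tgfb1, at 0.127 to 0.147. Of these, Syne4, Stoml1 and Tgfb1 were called lower without library 3 (adjusted p 0.0365, 0.0334 and 0.0181 by limma) and none over 8 libraries. Without library 3, 2.05% of all tested genes were called lower. Csf2 was itself called only without that library, so these calls too follow largely from the choice of genes. The distance was chosen to name genes and carries no test.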

How the data were processed

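Total RNA of cultured cells was made into 8 TruSeq libraries and sequenced on a NovaSeq instrument, per the labels' protocols, and reads were aligned with STAR 2.7.10a to mm10, per the submitters' processing notes. Per the file headers the deposited values derive from coverage tracks; read from the values, they are a signal, mean coverage per base scaled to depth. The sources used here do not name the program or annotation behind them. Numbers of reads were not derived, so no count model was used and depth was read only from steps of 1 covered base.

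Groups came from the sample titles. Values were fitted as log2(value + 1) in R 4.3.3 by limma 3.58.1 (trend on, no covariate), and p-values were adjusted over all 11731 genes that reached 0.5 in 4 or more libraries. The fit was tested on simulated data, drawn independently for each library with the SD of the controls. That simulation held no deviating library and no trend with transcript length, so it does not cover either. Ratios were tested with SciPy 1.17.1. Alternatives were median-of-ratios scaling, equal sums, quantile normalisation, no filter, a filter at 1, a pseudocount of 0.1, a lowess correction (span 0.3) for transcript length, the replicate block and leaving out each library. Genes were named by rule: the members, receptors and ligands, Etv5, up to 4 called genes of each other list and 5 genes with the nearest profile per member, of which 1 is not reported here. Other listed genes, the neighbours and settings for single listed genes were chosen with values known. The members and lists were chosen with earlier results of these data known. Lengths and coordinates are from GENCODE M21, which gave a length for 97.7% of rows.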

Additional observations from a re-analysis of the deposited data

Results flagged for a closer look

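Each group of 4 libraries was screened with Dixon's test at 95% for a library far from the others. It was met in 11 of 48 groups, taken over the tested named genes and the 3 ratios. About 2.4 would arise by chance in independent groups not chosen by their values. Many of the named genes were chosen for profiles like a member's in the same libraries, and the ratios reuse the members' values. The count of 11 is therefore not tested against 2.4. Of the 11, 8 concerned Etv5 shRNA library 3.

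Among members, Csf1 was 12.1 in Etv5 shRNA library 3 against 28.7 to 29.5 in the others of its group, and 29.9 in control library 3 against 35.0 to 35.9. For ratios, Csf3/Csf1 was 2.03 in Etv5 shRNA library 3 against 0.699 to 0.780, and Csf2/Csf1 was 0.122 against 0.0145 to 0.0232.

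Of the genes with profiles near Csf1, library 3 was low in Smarca2 (2.69) and Zfp60 (0.0892), and control library 3 was low in Zfp60 (1.45). Of those near Csf2, library 3 was high in Syne4 (10.2), Stoml1 (5.93) and Rac3 (6.34). Near Csf3, Ccl2 was 4.82 in control library 3 against 3.25 to 3.47 in the other controls. The genes near Csf1, Csf2 and Csf3 were chosen for their likeness over the same libraries, so these add no separate evidence.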

How the results depend on the processing

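Csf3 was called lower under all 18 settings tried (log2 fold change -2.59 to -2.33, adjusted p by limma at most 0.00212), and Csf1 and Etv5 under none (-0.62 to -0.20 and -0.42 to -0.16). Csf2 was called without Etv5 shRNA library 3, there also after median-of-ratios scaling (-0.65, limma's adjusted p 0.0324), and under no other setting; leaving out each library gave -0.66 to -0.39. Median-of-ratios scaling over 8 libraries put the median of all genes at 0.02 in place of -0.11, Csf3 then being at -2.33. Leaving out each library gave log2 differences of -2.38 to -1.87 for Csf3/Csf1 and -1.73 to -1.22 for Csf3/Csf2, all at an exact p of 0.0571, the smallest possible there. The number of genes called lower, 57, was 37 (pseudocount 0.1), 92 (length trend removed), 230 with median-of-ratios scaling without library 3, 511 with the length trend removed without library 3 (a setting chosen after seeing the data), and 28 to 241 with each library left out. The number called higher, 1, was 7 with median-of-ratios scaling, 0 for both equal sums and pseudocount 0.1, 8 with quantile normalisation, 3 with no filter, 22 on removing the length trend, 131 and 429 in the same settings without library 3, and 0 to 127 with each library left out. The cause of these shifts was not tested.

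Same-numbered libraries deviated together at correlations of 0.549, 0.0924, 0.794 and 0.510, with 1 pair under 0.1. Etv5 shRNA libraries 1, 2 and 4 correlated more with a control of another number, and library 3 most with control library 3. Deviations within a group depend on each other, so a library that stands apart shifts those of the rest of its group. These correlations therefore cannot decide whether same-numbered libraries share more than a number, and the main fit was left unpaired. With the replicate number as a block, Csf1 and Csf2 were not called and Csf3 was (adjusted p 0.444, 0.381 and 0.000741 by limma), with 50 lower genes and 1 higher. The paired ratios gave -2.03 for Csf3/Csf1 and -1.53 for Csf3/Csf2 at an exact p of 0.125, the smallest that 4 pairs allow. The thin coverage of Csf2 limits what can be said of it.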

Other observations

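No tested gene next to a member was called, where 0.494% of all tested genes were called over 8 libraries. With so few neighbours tested, this cannot show that the change in Csf3 was confined to that gene. Within 100 kb of Csf3, 6 genes were tested, with log2 fold changes from -0.50 to 0.34. Psmd3, a proteasome subunit gene 5284 bases upstream, averaged 92.2 with the Etv5 shRNA and 71.4 in controls (adjusted p 0.747 by limma). Med24, a Mediator subunit gene on the opposite strand whose 3′ end lies 962 bases downstream, averaged 39.9 with the Etv5 shRNA and 46.8 in controls (adjusted p 0.780 by limma). Thra, the thyroid hormone receptor alpha gene, had -0.50 (adjusted p 0.348, and 0.0544 without library 3, by limma). Csf2 has Il3 15636 bases away and Acsl6 as its 1 tested neighbour, at -0.29 (adjusted p 0.855 by limma). Csf1 has Ahcyl1, at -0.16 (adjusted p 0.900 by limma). These genes were looked at after the values of the members were known.

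Promoters of Csf1 and Csf2 were in the RefSeq table used here, on GRCm38.p6. The 250 bases before the RefSeq start were searched on both strands for AGGAAG (the PEA3 motif), the NF-kB motif (3 G bases, any 5 bases, 2 C bases), TGANTCA (AP-1) and GAGATTCC (the CK-1 element), which 29.2%, 45.4%, 6.87% and 0.696% of 27025 promoters hold. Csf2 held none of these letters; its RefSeq start lies upstream of the GENCODE start given in the report, so the window is not that of the GENCODE transcript. Csf1 held the NF-kB letters at 4 positions, a pair of them overlapping, and none of the others. It is shown with these matches in capitals, on the minus strand of chr3:107760470-107760719, because it was the only window of a member in which any of these letters were found.
Csf1 promoter: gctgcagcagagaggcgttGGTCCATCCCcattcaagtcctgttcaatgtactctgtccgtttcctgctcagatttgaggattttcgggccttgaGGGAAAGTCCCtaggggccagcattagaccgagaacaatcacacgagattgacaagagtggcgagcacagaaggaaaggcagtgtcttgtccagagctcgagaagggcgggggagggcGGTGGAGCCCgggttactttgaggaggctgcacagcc
A match is a description of letters and not a site of binding.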
